A study of Mus musculus with 35 samples.

Results

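Cold-exposed brown fat draws fatty acids from the blood, and 10 genes of that route were followed here through a cold exposure time course: Lpl, Gpihbp1, Angptl4, Angptl8, Lmf1, Cd36, Vldlr, Fabp3, Fabp4 and Slc27a1. They were chosen by name, as genes of the lipoprotein lipase (LPL) system and of fatty acid uptake. All 10 were found among the 55421 gene identifiers of the count table. Tissue RNA came from interscapular brown adipose tissue (iBAT), the classic brown fat depot between the shoulder blades, of 35 male C57BL/6J mice aged 9 to 10 weeks and fed chow. Of these, 5 mice were kept at room temperature (24 °C, colony housing) and 5 mice were exposed to 6 °C for each of 6 durations, the shortest of 6 hours and the others of 1 to 5 whole days. The mice carried no engineered allele. Cold-exposed mice lived alone without nesting material, so the effects of temperature and of housing cannot be told apart. Each mouse gave 1 library from 1 iBAT pad. The pads were trimmed of neighbouring white fat before freezing.

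LPL is the enzyme that releases fatty acids from the triglycerides of circulating lipoproteins at the capillary wall. Parenchymal cells such as adipocytes make LPL, LMF1 helps it to fold in the endoplasmic reticulum, and GPIHBP1 on endothelial cells carries it to the vessel lumen. ANGPTL4 inactivates LPL within tissues, ANGPTL8 acts together with a liver protein to inhibit it, and VLDLR binds triglyceride-rich lipoproteins. Fatty acids then enter cells with the help of CD36 and FATP1, the product of Slc27a1, and are carried inside cells by FABP3 and FABP4. Cold strongly raises LPL activity and triglyceride uptake in brown fat.

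The libraries held 3846016 to 6047247 gene counts, and 1 read in the smallest corresponds to 0.26 CPM. Levels are given as CPM, the counts of a gene relative to all counts of its library, scaled by TMM, a method that corrects for differences in library composition. The library kit reads only the 3′ end of each transcript, so levels were compared between mice and never between genes. All 10 markers of brown adipocytes were detected, and their summed level was between 6553 and 14619 CPM in each of the 35 mice. Mitochondrial genes took 33.61 to 46.19% of the counts of a library. All 6 durations were compared with the same 5 room temperature mice, so these comparisons are not independent. In RNA from whole tissue, fewer cells of a type and less RNA per cell cannot be told apart.

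The members called were most numerous, 7 of 10, at the earliest time. After 6 hours 4 members were higher than at room temperature (Lpl, Fabp3, Gpihbp1 and Cd36) and 3 were lower (Angptl4, Vldlr and Slc27a1). The threshold was an adjusted p (Benjamini-Hochberg) below 0.05 by the quasi-likelihood test of edgeR, which 42.5% of all genes tested passed at that time, 21.5% higher and 21.0% lower. At 1 day 4 members were higher and 2 lower, against 18.9% and 17.8% of all genes (36.7% together). The split was 4 and 1 at 2 days, against 16.4% and 14.7% (31.2% together), and 3 and 1 at 3 days, against 18.3% and 15.5% (33.8% together). It was 2 and 3 at 4 days, against 19.4% and 18.6% (38.0% together), and 3 and 1 at 5 days, against 20.2% and 18.6% (38.8% together). These splits depended on how libraries were scaled. With library size as the only scaling, members called lower outnumbered those called higher at every duration except 1 day. All 10 members passed the filter on low counts in each comparison. The share of members past the threshold was thus above that of all genes by the widest margin after 6 hours, and close to it after 3 and 5 days. The members were chosen with earlier results of these data known, so these margins are a description and not a test. Groups did not overlap for 6 of 10 members after 6 hours, against 28.5% of all genes, for 5 at 1 day (25.0%) and 5 at 2 days (20.2%). The numbers were 3 at 3 days (21.9%), 5 at 4 days (25.1%) and 3 at 5 days (24.6%). The median log2 fold change of the 10 members lay between 0.11 and 0.34 over the 6 durations, while that of all genes tested lay between -0.027 and -0.007. Lpl, Angptl4 and Fabp3 passed in all 6 durations.

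**Figure D1:**
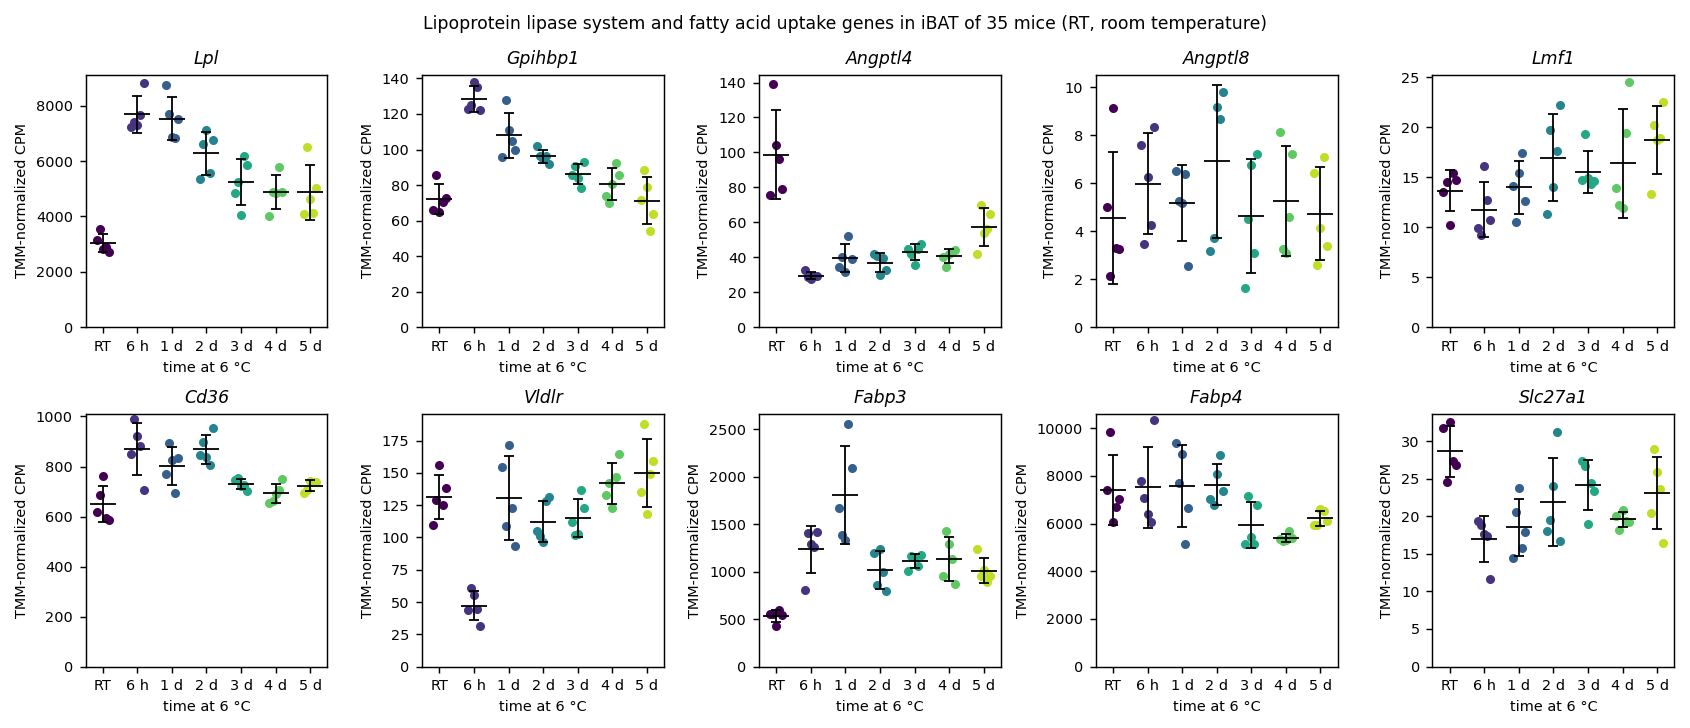
Level of each of the 10 members in every mouse (y axis, TMM-normalized CPM, from 0) by time at 6 °C (x axis; RT, room temperature). Each point is 1 mouse, long bars are means and whiskers are SD (n = 5 mice per group). Lpl peaked at 6 hours and 1 day and stayed above the controls, Angptl4 was below the controls in every cold group, and Vldlr was low at 6 hours only.

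Lpl, on chromosome 8 from 68880491 to 68907448 (plus strand, GRCm38), encodes the lipase itself. At room temperature the 5 mice had 3132, 3546, 2822, 2909 and 2725 CPM. After 6 hours of cold exposure they had 7219, 7407, 7311, 7660 and 8817 CPM. The lowest cold-exposed mouse thus had more than the highest control, and 1 mouse after 6 hours stood above the other 4. The log2 fold change was 1.32 (standard error 0.10, 95% interval 1.12 to 1.52, edgeR adjusted p = 1.1e-08), which is 2.50-fold.

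The rise in Lpl was kept after 1 day, with 8729, 7715, 6858, 6837 and 7529 CPM and a log2 fold change of 1.31 (edgeR adjusted p = 2.0e-07). Group means then stepped down to 6284 ± 771 CPM at 2 days, 5243 ± 842 at 3 days and 4885 ± 617 at 4 days (SD, n = 5 each). After 5 days the mice had 4073, 6509, 4618, 4120 and 5028 CPM. Every one of them remained above every control, and the log2 fold change was 0.68 (standard error 0.14, edgeR adjusted p = 7.0e-04), or 1.60-fold. No cold group overlapped the controls for Lpl. Leaving out any 1 mouse kept the call in all 6 comparisons.

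Compared directly, Lpl was lower after 5 days than after 6 hours by 0.64 on the log2 scale (edgeR log2 fold change -0.64, standard error 0.13, adjusted p = 6.9e-04), and these groups did not overlap. Macrophage markers, 12 genes, rose over the same period, from a summed 99.0 to 116 CPM after 6 hours to 136 to 466 CPM after 5 days. Of the 10 that could be tested, 9 were higher after 5 days than after 6 hours and 0 were lower, against 19.0% and 16.9% of all genes. Within durations, Lpl and the summed macrophage markers had a Pearson r of -0.409 over 35 mice (2-sided permutation p = 0.04, adjusted p = 0.08 over 4 relations). Spearman's rho was -0.411 (permutation p = 0.0389, adjusted p = 0.0779), and r was -0.301 without the 2 mice at the greatest distance from the markers' median. With library size as the only scaling, r was 0.092, so the relation depends on how libraries were scaled. The authors name Lpl among the top genes of a cold-induced macrophage cluster. They also describe higher Lpl in a stromal cell type that appeared poised to form adipocytes. The part of macrophage RNA in the change of Lpl was not tested.

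Gpihbp1, on chromosome 15 from 75596628 to 75599481 (plus strand), encodes the endothelial protein that anchors LPL and shuttles it across the capillary wall. The controls had 65.7, 85.8, 64.8, 70.3 and 72.9 CPM. Mice exposed for 6 hours had 123, 125, 138, 135 and 122 CPM. All 5 were above all controls, and the log2 fold change was 0.82 ± 0.10 (standard error; edgeR adjusted p = 3.1e-06), or 1.76-fold. After that Gpihbp1 fell back toward the level of controls. The log2 fold change was 0.58 at 1 day (edgeR adjusted p = 6.4e-04), 0.41 at 2 days (adjusted p = 0.00667), 0.27 at 3 days (adjusted p = 0.0497) and 0.15 at 4 days (adjusted p = 0.271). After 5 days the mean was 71.3 ± 13.2 CPM, beside 71.9 ± 8.44 at room temperature, and the 95% interval of the log2 difference ran from -0.29 to 0.25. The call at 3 days did not survive 6 of the 7 alternative fits, in which its adjusted p was at most 0.388, or 8 of the 10 fits without 1 mouse. The call at 2 days was lost when libraries were scaled by size alone (log2 fold change 0.19, edgeR adjusted p = 0.25) or by size without mitochondrial genes and Gm42418 (0.29, adjusted p = 0.0571). Between 6 hours and 5 days, Gpihbp1 fell by 0.84 on the log2 scale (edgeR adjusted p = 1.3e-05).

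Markers of endothelial cells, the cells that make GPIHBP1, were also highest after 6 hours and 1 day. The summed level of 11 endothelial markers was 327 to 406 CPM at room temperature, 536 to 637 CPM after 6 hours, 632 to 738 CPM after 1 day and 299 to 469 CPM after 5 days. After 6 hours 4 of the 11 were higher and 2 were lower (21.5% and 21.0% of all genes), so the list did not move as 1 block. After 1 day 6 of 10 tested were higher and 0 lower, against 18.9% and 17.8% of all genes. After 5 days 0 of 11 were higher and 2 lower, against 20.2% and 18.6%. None of the 11 was at 0 in all mice. Mice with more endothelial marker RNA than others of the same duration also had more Gpihbp1, with a Pearson r of 0.507 over 35 mice (2-sided permutation p = 0.0102, adjusted p = 0.0408) and a Spearman's rho of 0.501 (permutation p = 0.00963, adjusted p = 0.0385). Without the 2 mice at the greatest distance from the markers' median, r was 0.458. Whether endothelial content accounts for the change in Gpihbp1 was not tested.

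Angptl4, on chromosome 17 from 33773750 to 33781830 (minus strand), encodes the secreted protein that inactivates LPL, and it went the opposite way to Lpl. The 5 controls had 75.7, 139, 104, 96.2 and 78.9 CPM. Values after 6 hours were 32.5, 28.9, 27.5, 29.5 and 29.6 CPM. The cold-exposed mice lay close together, far below the lowest control. The log2 fold change was -1.76 (standard error 0.14, 95% interval -2.06 to -1.46, edgeR adjusted p = 4.2e-08), a level 3.39-fold lower.

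Angptl4 stayed low from 1 to 4 days, with means of 39.4 ± 7.90, 36.9 ± 5.35, 42.9 ± 4.52 and 40.8 ± 3.75 CPM (SD, n = 5 each). The log2 fold changes were -1.33, -1.43, -1.20 and -1.28, with edgeR adjusted p between 4.4e-06 and 1.5e-05. After 5 days the mice had 41.7, 70.1, 54.0, 56.0 and 64.9 CPM, all still below the lowest control. The log2 fold change was -0.79 (edgeR adjusted p = 8.3e-04). Angptl4 was higher after 5 days than after 6 hours by 0.97 on the log2 scale (standard error 0.13, edgeR adjusted p = 8.4e-06), so part of the fall had been regained.

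Because the enzyme and its inhibitor moved apart, the ratio of Lpl to Angptl4 was also computed in each mouse and set relative to the mean of the controls, as a description without a test. After 6 hours the ratio was 8.29 times that of controls, with single mice between 7.11 and 9.52. It was 6.18 at 1 day, 5.45 at 2 days, 3.88 at 3 days and 3.82 at 4 days. After 5 days it was 2.72, with single mice between 2.35 and 3.13. The controls ran from 0.818 to 1.32, below every cold-exposed mouse. Within durations, where the mean of each group was removed, Lpl and Angptl4 had a Pearson r of 0.296 (n = 35 mice, 2-sided permutation p = 0.124, adjusted p = 0.165) and a Spearman's rho of 0.228 (permutation p = 0.242, adjusted p = 0.307). Without the 2 farthest mice r was 0.147.

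**Figure D2:**
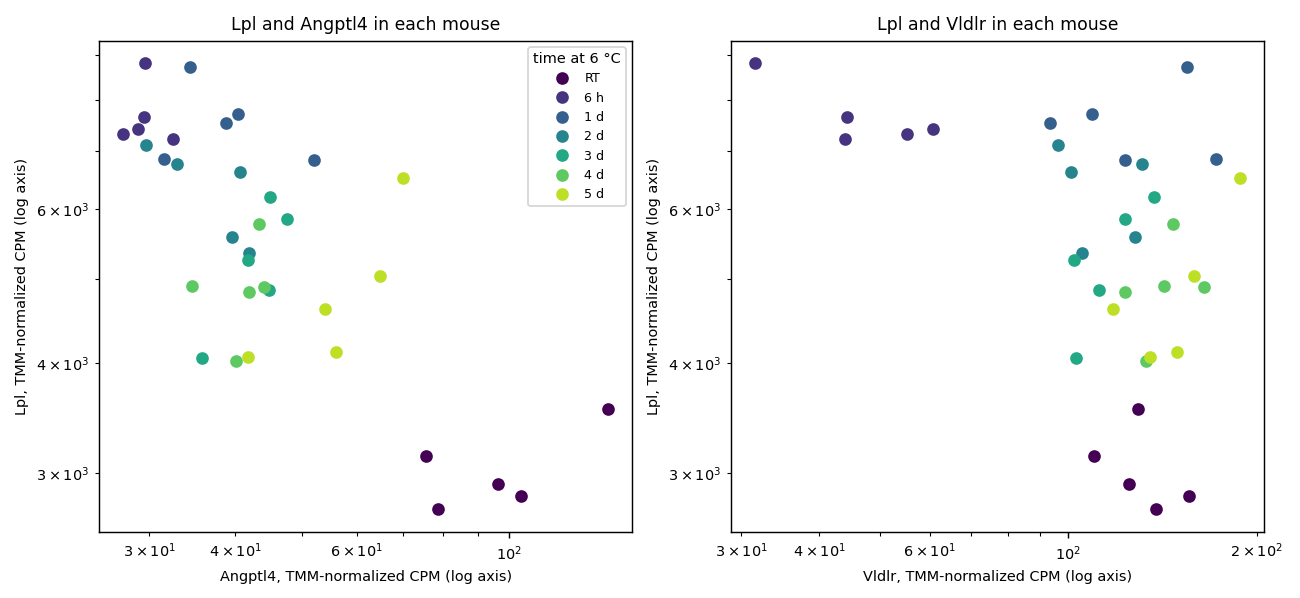
Lpl against Angptl4 (left) and Lpl against Vldlr (right) in each of 35 mice, both axes in TMM-normalized CPM on a log scale, coloured by time at 6 °C (RT, room temperature). Controls sit at low Lpl and high Angptl4, the 6 hour mice at high Lpl and low Angptl4, and Vldlr sets the 6 hour mice apart from all others, at 60.8 CPM or less.

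Angptl8, on chromosome 9 from 21835510 to 21837347 (plus strand), encodes a feeding-responsive partner in LPL inhibition and was scarce here. Group means were between 4.56 and 6.90 CPM, and single mice had between 7 and 51 counts. Within groups the highest mouse had several times the level of the lowest, for example from 2.13 to 9.13 CPM among controls. It passed in none of the 6 durations by edgeR, with adjusted p from 0.284 to 0.936. After 6 hours the 95% interval of the log2 fold change was -0.32 to 1.11, so the data leave its direction open.

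Lmf1, on chromosome 17 from 25579085 to 25662826 (plus strand), encodes the maturation factor that LPL needs in order to fold. The controls had 13.5, 14.5, 10.2, 15.4 and 14.7 CPM, and after 6 hours, when Lpl was at its highest, the mice had 9.95, 9.24, 16.1, 12.7 and 10.7 CPM. These groups overlapped, and the log2 fold change was -0.25 (95% interval -0.60 to 0.11, edgeR adjusted p = 0.26). With library size alone it was -0.44 and passed (adjusted p = 0.0428). After 5 days the mice had 13.3, 20.2, 18.7, 18.9 and 22.5 CPM. That was a log2 fold change of 0.44 (edgeR adjusted p = 0.0366), a call that was lost without any of 7 of the 10 mice, in the fit of all 7 groups together (adjusted p = 0.0628), with library size alone (0.20, adjusted p = 0.336) and with library size taken without mitochondrial genes and Gm42418 (0.26, adjusted p = 0.209). Lmf1 was higher after 5 days than after 6 hours by 0.69 on the log2 scale (standard error 0.18, edgeR adjusted p = 0.00484), although these groups overlapped as well.

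Vldlr, on chromosome 19 from 27216484 to 27254231 (plus strand), encodes the very low density lipoprotein receptor, and its change was brief. The controls had 110, 129, 156, 125 and 138 CPM. The mice after 6 hours had 44.0, 60.8, 55.2, 44.3 and 31.6 CPM. The highest of these was well below the lowest control, and the log2 fold change was -1.5 (95% interval -1.81 to -1.20, edgeR adjusted p = 3.1e-07), a level 2.84-fold lower.

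After 1 day Vldlr was back in the range of the controls, with 155, 109, 172, 123 and 93.5 CPM, a log2 fold change of -0.01 and a 95% interval of -0.34 to 0.31. Group means were 112 ± 16.1 CPM at 2 days, 115 ± 14.9 at 3 days, 142 ± 15.8 at 4 days and 150 ± 26.4 at 5 days. None of these passed in edgeR, with adjusted p from 0.137 to 0.955 over the 5 later durations. When libraries were scaled by size alone, the lower levels at 2 days (-0.48 on the log2 scale, edgeR adjusted p = 0.00535) and 3 days (-0.32, adjusted p = 0.0468) did pass. The level at 2 days also passed with library size taken without mitochondrial genes and Gm42418 (-0.37, edgeR adjusted p = 0.0225). The level after 5 days exceeded that after 6 hours by 1.69 on the log2 scale (standard error 0.15, edgeR adjusted p = 4.4e-08), the largest of the 10 members' differences between these times, and the groups did not overlap.

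Cd36, on chromosome 5 from 17781690 to 17888801 (minus strand), encodes the main membrane protein for uptake of long-chain fatty acids. The controls had 620, 685, 762, 596 and 588 CPM, and after 6 hours the mice had 851, 990, 921, 883 and 707 CPM. All but 1 of these 5 mice were above every control. The log2 fold change was 0.40 (standard error 0.10, edgeR adjusted p = 0.0051). It was 0.30 after 1 day (adjusted p = 0.0315) and 0.41 after 2 days (adjusted p = 0.00933), when the groups did not overlap. From 3 to 5 days it was between 0.08 and 0.18 and did not pass, with adjusted p from 0.173 to 0.513. The calls for Cd36 depended on the settings. That at 1 day was lost without any of 6 of the 10 mice, with no filter on low counts (adjusted p = 0.0717) and with library size taken without mitochondrial genes and Gm42418 (adjusted p = 0.2). With library size alone the log2 fold changes were 0.21, 0.08 and 0.19 after 6 hours, 1 day and 2 days, with edgeR adjusted p of 0.106, 0.546 and 0.197.

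Slc27a1, on chromosome 8 from 71568882 to 71587302 (plus strand), encodes the fatty acid transport protein FATP1, and unlike Cd36 it was lower in the cold. The controls had 31.8, 24.6, 32.6, 27.4 and 26.8 CPM, and after 6 hours the mice had 19.4, 18.9, 17.7, 17.4 and 11.7 CPM. These did not overlap, and the log2 fold change was -0.78 ± 0.14 (standard error; edgeR adjusted p = 2.6e-04). It was -0.63 after 1 day (adjusted p = 0.0026) and -0.55 after 4 days (adjusted p = 0.00106), also with no overlap. After 2, 3 and 5 days it was -0.40, -0.24 and -0.32, and edgeR's adjusted p was 0.0668, 0.158 and 0.0873. With library size alone the value passed at all of these times too, from -0.38 to -0.63. With library size taken without mitochondrial genes and Gm42418 it passed at 2 and 5 days (-0.52 and -0.50, edgeR adjusted p = 0.0129 and 0.00932).

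Fabp3, on chromosome 4 from 130308595 to 130315463 (plus strand), encodes the heart-type fatty acid binding protein of oxidative tissues and had the largest rise of the 10 members. The controls had 554, 553, 426, 596 and 547 CPM. After 6 hours the mice had 807, 1410, 1292, 1255 and 1414 CPM, and after 1 day 1670, 1383, 1337, 2556 and 2089 CPM. All cold-exposed mice exceeded all controls at both times. The log2 fold change was 1.18 after 6 hours (standard error 0.14, edgeR adjusted p = 2.1e-06) and 1.75 after 1 day (standard error 0.17, adjusted p = 7.4e-07), a 3.37-fold rise.

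From 2 days on, Fabp3 held a plateau with group means between 1011 and 1133 CPM. The log2 fold changes were 0.91, 1.06, 1.08 and 0.91 after 2, 3, 4 and 5 days, with edgeR adjusted p between 1.5e-06 and 1.8e-04 and no overlap with controls in any of them. Its level after 5 days was not called against that after 6 hours (log2 fold change -0.28, 95% interval -0.56 to 0.01, edgeR adjusted p = 0.123). Exons of Zcchc17 and Gm10570 on the opposite strand overlap those of Fabp3, but held 3911 and 627 counts over all mice, against 191098 for Fabp3. The pseudogene Fabp3-ps1 had 86 counts.

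FABP3 is also abundant in muscle, so the 10 skeletal muscle markers were set beside it. Their summed level varied widely within groups, from 94.1 to 1166 CPM among controls and from 2.57 to 599 CPM after 3 days. Of the 10 markers, 0 were higher than in controls at any duration, against 16.4% to 21.5% of all genes. After 5 days 6 were lower, against 18.6%. Within durations the Pearson r of Fabp3 with these markers was -0.206 (n = 35 mice, 2-sided permutation p = 0.271, adjusted p = 0.271) and Spearman's rho was -0.187 (permutation p = 0.307, adjusted p = 0.307). Without the 2 farthest mice r was -0.143. The part of muscle RNA in the level of Fabp3 was not tested further.

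**Figure D3:**
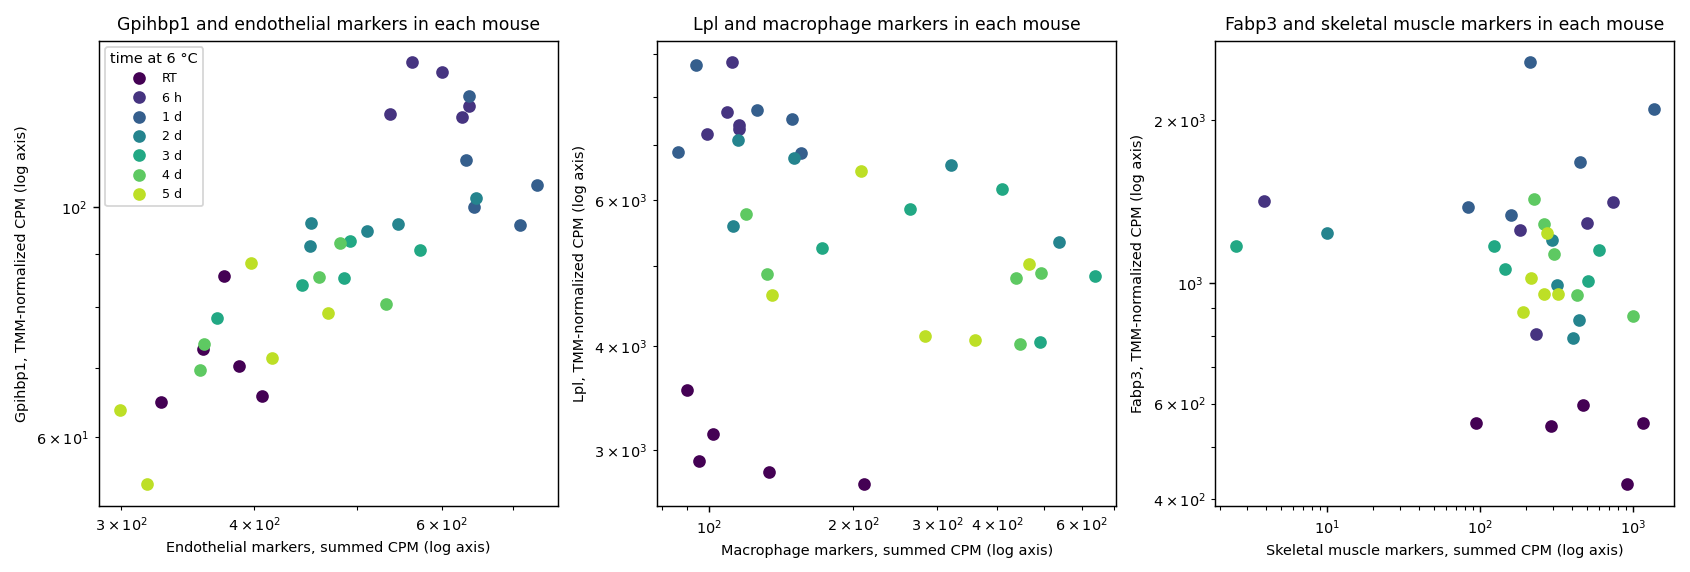
Gpihbp1 against summed endothelial markers (left), Lpl against summed macrophage markers (middle) and Fabp3 against summed skeletal muscle markers (right), each point 1 of 35 mice, all axes in TMM-normalized CPM on a log scale, coloured by time at 6 °C (RT, room temperature). Gpihbp1 is high where endothelial markers are high (r = 0.507 within durations), and cold-exposed mice lie above controls in Fabp3 across the range of muscle markers (2.57 to 1360 CPM).

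Fabp4, on chromosome 3 from 10204088 to 10208576 (minus strand), encodes the fatty acid binding protein of adipocytes and endothelial cells. The group mean was 7410 ± 1452 CPM at room temperature, 7532 ± 1699 after 6 hours, 7565 ± 1718 after 1 day and 7634 ± 851 after 2 days. After 6 hours the 95% interval of the log2 fold change was -0.30 to 0.30. After 4 days the mice had 5347, 5270, 5306, 5697 and 5411 CPM, all below the lowest control at 6054. That was the only call by edgeR for Fabp4, at -0.46 on the log2 scale (standard error 0.12, adjusted p = 0.00584). After 3 and 5 days the values were -0.31 and -0.26, with adjusted p of 0.0985 and 0.115. Both passed when libraries were scaled by size alone (-0.47 and -0.50, edgeR adjusted p = 0.00665 and 0.00249). They also passed with library size taken without mitochondrial genes and Gm42418 (-0.39 and -0.44, edgeR adjusted p = 0.0205 and 0.00455).

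**Figure D4:**
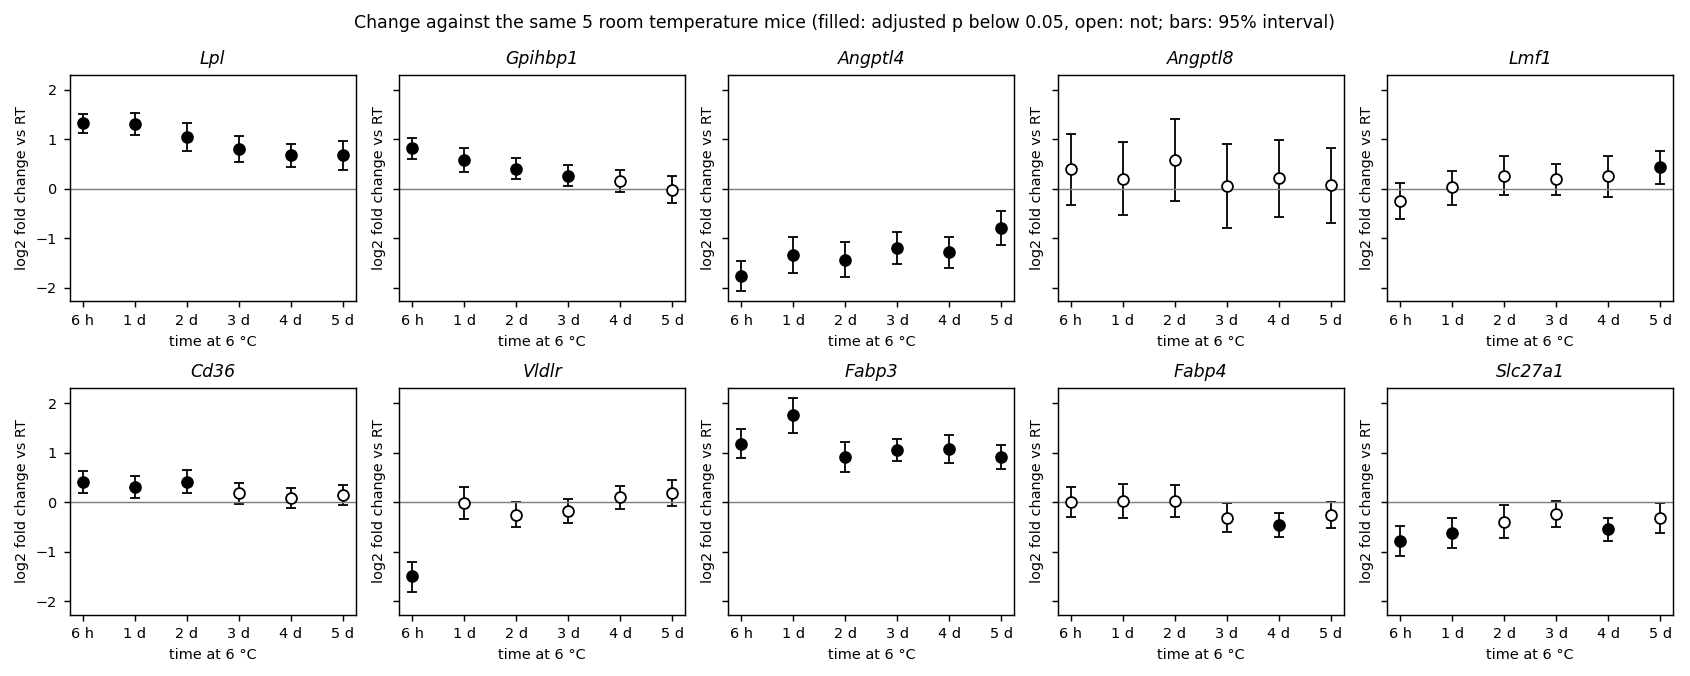
Log2 fold change of each member against the same 5 room temperature mice (y axis) by time at 6 °C (x axis), with 95% intervals from edgeR. Filled points have an adjusted p below 0.05 and open points do not. Lpl (0.68 to 1.32) and Fabp3 (0.91 to 1.75) lie above 0 throughout, Angptl4 (-1.76 to -0.79) lies below 0 throughout, and Vldlr leaves 0 only at 6 hours (-1.5).

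Each member's 7 group means were put in order, and neighbours in that order were compared by an exact permutation test (2-sided, on log2 CPM, every split of 5 against 5 mice). Of 60 such neighbour pairs, 4 did not overlap. For Lpl and Fabp3 the step lay between room temperature and the lowest cold group, which was that after 5 days, with log2 differences of 0.67 and 0.92. For Angptl4 the step lay between room temperature and the group after 5 days (0.77), and for Vldlr between the groups after 2 days and after 6 hours (1.26). Each of the 4 had an exact permutation p of 0.00794, the smallest that 5 against 5 mice can give, and an adjusted p of 0.119 over 60 pairs. No pair reached an adjusted p below 0.05, and with that smallest p a single pair out of 60 could not have done so. The remaining neighbour pairs overlapped.

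Over the whole course, 6 of 10 members were called between 6 hours and 5 days of cold exposure, against 35.8% of all genes. Lpl and Gpihbp1 were lower after 5 days, against 16.9% of all genes, and Angptl4, Lmf1, Vldlr and Slc27a1 were higher, against 19.0%. For Slc27a1 the log2 fold change of 0.46 (edgeR adjusted p = 0.0379) was lost without any of 6 of the 10 mice, with library size alone (0.40, adjusted p = 0.0636), with DESeq2 (0.45, adjusted p = 0.0705) and with library size taken without mitochondrial genes and Gm42418 (0.39, adjusted p = 0.0818). Cd36 was not called (-0.25, adjusted p = 0.0587), but was lower in 4 of the 7 alternative fits, at -0.26 to -0.32 with adjusted p from 0.0134 to 0.0314. In the fit without mitochondrial genes and Gm42418, Fabp3 (-0.34, adjusted p = 0.0499) and Fabp4 (-0.33, adjusted p = 0.0287) were lower as well. Lpl, Gpihbp1, Angptl4 and Vldlr had groups that did not overlap, against 23.5% of all genes.

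Of the RefSeq promoter sequences at hand, 6 of the 10 members had an entry, with 9 transcription starts (GRCm38.p6). Lpl, Gpihbp1, Angptl4 and Fabp4 had none. In the 250 bases before each start, letters were searched on both strands for TGACG, the core of the site bound by cAMP-responsive factors and for AGGTCA, a core site of nuclear receptors. These motifs were chosen with results known. All 3 starts with a match are shown, with the match in capitals.
Fabp3, chr4:130308577-130308606 (plus strand): cgcgggcgccgcTGACGtaggcgacgggag
Cd36, chr5:17836107-17836136 (minus strand): ctctgcactttaTGACCTgagattttcagg
Lmf1, chr17:25578975-25579004 (plus strand): gacacggcctgcCGTCActagctccttccc
In Fabp3, TGACG lay 149 to 145 bases before the RefSeq start. In Cd36, AGGTCA lay on the opposite strand 228 to 223 bases before it, where the gene's own strand reads TGACCT. In Lmf1, which was not called after 6 hours, TGACG lay on the opposite strand 187 to 183 bases before the start. These 3 RefSeq starts (130308738, 17835896 and 25579174) all lie inside the genes as annotated above. That of Cd36 is far inside, since the gene runs on the minus strand from 17888801. Which starts are used in iBAT was not tested. Of all 32851 RefSeq windows of this length, 17.8% hold TGACG and 14% hold AGGTCA, so single matches are common. The direct repeat is held by 0.0335% of them and was found at no start of a member. No match was found at the starts of Vldlr, Slc27a1 and Angptl8.

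To place the members among their partners, a list of 61 genes was counted in 7 groups, of which 51 were not members. This list too was drawn up with earlier results of these data known, so its shares describe it and test nothing. After 6 hours 33 of these 51 could be tested, and 12 were higher and 10 lower, which is 66.7% against 42.5% of all genes. After 5 days 34 could be tested, and 9 were higher and 11 lower, or 58.8% against 38.8%. The median log2 fold change of the tested genes was -0.06 and -0.12 at these times, so neither direction dominated.

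Among genes of LPL folding and processing, Lmf1 included, 3 of 8 were higher and 2 lower after 6 hours, against 21.5% and 21.0% of all genes. At 1, 2 and 3 days 37.5%, 37.5% and 25.0% of this group were called, against 36.7%, 31.2% and 33.8% of all genes. Pcsk6 encodes a proprotein convertase that can cleave lipases such as LPL. It rose from 24.1 ± 3.79 to 71.4 ± 12.2 CPM after 6 hours and 83.5 ± 9.51 CPM after 1 day (SD, n = 5 each), and was still at 40.6 ± 3.86 CPM after 5 days (log2 fold changes 1.54, 1.79 and 0.74, edgeR adjusted p = 8.7e-08, 4.4e-08 and 1.8e-04). Sel1l, which works with Lmf1 on LPL in the endoplasmic reticulum, had a log2 fold change of -0.50 after 6 hours (edgeR adjusted p = 0.00294) and passed in 5 of 6 durations.

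Receptors and other lipoprotein proteins divided. Of 7 tested after 6 hours, Vldlr included, 2 were higher and 5 lower, against 21.5% and 21.0% of all genes. At 3 days 2 were higher and 1 lower, against 18.3% and 15.5%. Apoe, whose protein is a ligand of VLDLR, fell step by step from 1045 ± 175 CPM to 870 ± 69.1 after 6 hours, 648 ± 74.4 after 1 day and 199 ± 73.3 after 5 days (-2.40 on the log2 scale, edgeR adjusted p = 4.2e-08).

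In the fatty acid uptake group, fewer genes were called higher and more were called lower at the later durations. Of 9 tested genes, Cd36 and Slc27a1 included, 4 were higher and 2 lower after 6 hours, against 21.5% and 21.0% of all genes. After 4 days 0 were higher and 5 lower (19.4% and 18.6%). After 5 days 1 was higher and 4 lower (20.2% and 18.6%). Named after their values were seen, those lower after 4 days were Slc27a1, Cav1, Cav2, Cavin1 and Cavin2. The transporter genes Slc27a2 and Slc27a4 did not turn lower. Their log2 fold changes were 1.04 and 0.41 after 6 hours (edgeR adjusted p = 2.9e-06 and 0.0319). After 4 days they were 0.35 and 0.27 and were not called (edgeR adjusted p = 0.0589 and 0.259). Cavin1, a coat protein of the caveolae of adipocytes and endothelial cells, was at 367 ± 45.8 CPM in controls, 235 ± 31.1 after 6 hours and 163 ± 45.1 after 5 days (-1.18 on the log2 scale, edgeR adjusted p = 9.1e-06). Cav2, a caveolin, did not differ after 6 hours (log2 fold change 0.01, adjusted p = 0.925) and had fallen by 5 days from 48.4 ± 3.79 to 24.0 ± 5.77 CPM (-1.03, edgeR adjusted p = 2.5e-05).

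Inside the cell, the binding proteins Fabp5 and Dbi were first called higher at later times than Fabp3. Fabp5, the epidermal-type fatty acid binding protein, had a log2 fold change of -0.11 after 6 hours (edgeR adjusted p = 0.628) and was first called at 2 days (0.61, adjusted p = 0.0181), with 54.9 ± 8.82 CPM after 5 days. The authors name Fabp5, like Lpl, among the top genes of a cold-induced macrophage cluster. At 2 days 3 of 9 tested macrophage markers were higher and 0 lower, against 16.4% and 14.7% of all genes. The part of macrophage RNA in the level of Fabp5 was not tested. Dbi, the acyl-CoA binding protein, was first called after 3 days (0.38, adjusted p = 0.0335) and had a log2 fold change of 0.72 after 5 days (edgeR adjusted p = 5.5e-04). Acyl-CoA synthetases, which trap fatty acids inside cells, had 3 of 4 tested genes higher in each of the 6 durations. That is 75.0%, against 16.4% to 21.5% of all genes called higher. The genes behind this count changed with time, and they are named here after their values were seen. Acsl1 was called higher after 6 hours and 1 day (0.59 at both, adjusted p = 6.2e-04 and 0.00114). Acsl3 was lower after 6 hours (-0.76, adjusted p = 2.0e-04) and higher from 2 days on (0.79 to 1.15). Acsl5 rose to 147 ± 62.9 CPM after 6 hours, 410 ± 113 at 1 day and 639 ± 150 at 5 days (log2 fold changes 1.54, 3.04 and 3.67, edgeR adjusted p = 2.5e-04, 2.2e-07 and 5.1e-09). Acsl4 changed less, with log2 fold changes of 0.73 after 6 hours and 0.37 after 5 days (adjusted p = 8.2e-04 and 0.0226).

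On the endothelial side, Vegfb, a growth factor tied to fatty acid transport through vessel walls, fell from 135 ± 5.85 CPM to 96.0 ± 2.55 after 6 hours and 58.1 ± 6.62 after 2 days (-1.24 on the log2 scale, edgeR adjusted p = 5.0e-07), and was at 77.3 ± 8.69 CPM after 5 days. Meox2, a transcription factor of capillary endothelium that promotes fatty acid uptake, was at 11.1 ± 0.898 CPM in controls and 6.14 ± 0.535 after 5 days (-0.87, edgeR adjusted p = 5.4e-04). Among LPL cofactors and surface binding proteins, Hspg2 was called higher after 3 and 4 days (log2 fold changes 0.47 and 0.34, adjusted p = 0.00235 and 0.0294), and at 2 days its value was 0.44 (adjusted p = 0.104). Apoc1 was called lower after 1 day (-0.46, adjusted p = 0.0452), and at 3 days its value was -0.29 (adjusted p = 0.0862).

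**Figure D5:**
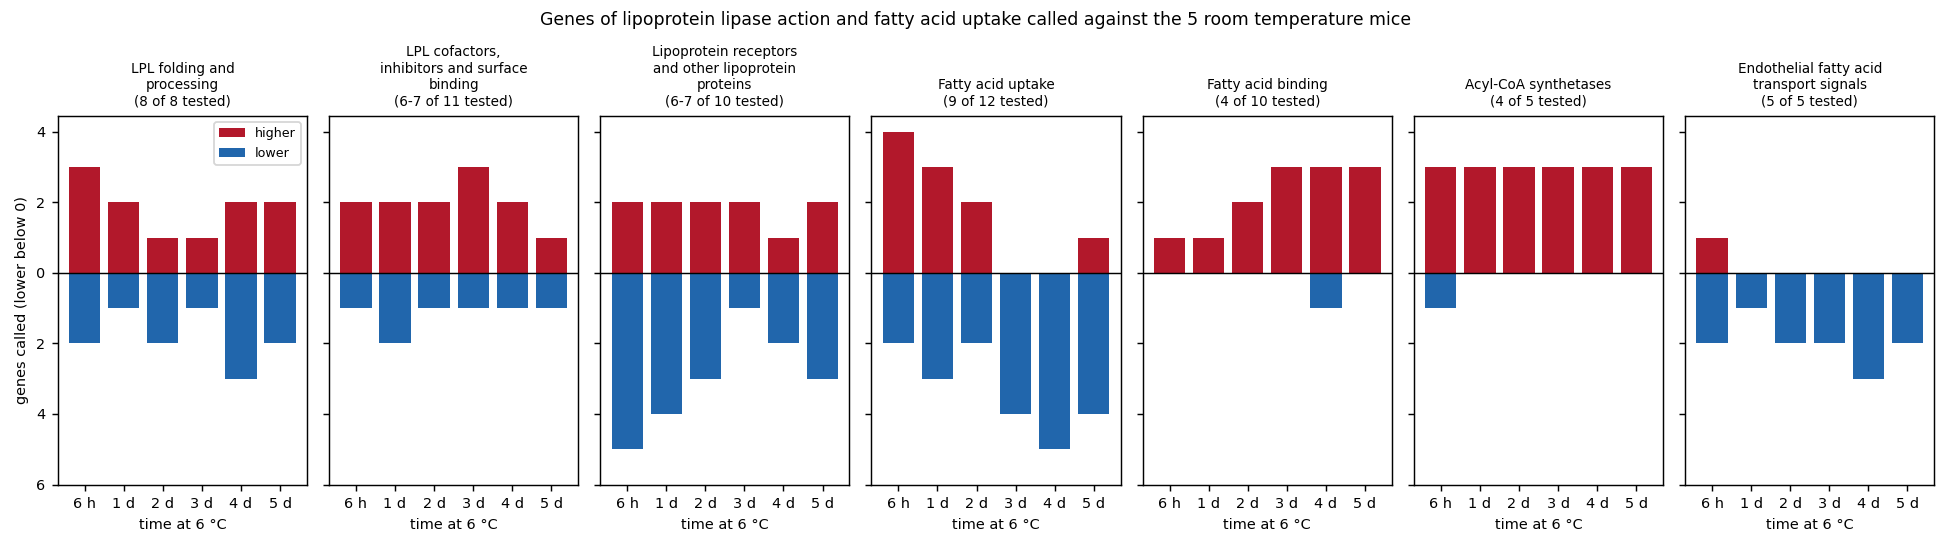
Number of genes called higher (red, above 0) and lower (blue, drawn below 0) than in the 5 room temperature mice (y axis) by time at 6 °C (x axis), for 7 groups of genes around LPL and fatty acid uptake, members included. Titles give the genes tested of those listed. Acyl-CoA synthetases have 3 genes higher at every duration and 1 lower at 6 hours. The fatty acid uptake group has 4 higher and 2 lower at 6 hours, with Cav1 among the higher. After 4 days it has 0 higher and 5 lower (Slc27a1, Cav1, Cav2, Cavin1 and Cavin2).

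The genes whose levels followed those of 3 members most closely over the 35 mice were ranked by Pearson's r of log2 CPM among 6170 genes with a symbol and a mean of at least 50 counts (6171 for Angptl8). This is a description, since all these genes share the same libraries and the same time course. For Lpl they were Nnmt (0.931), Apmap (0.931), Ctcflos (0.929), Usp33 (0.924) and Rnf144a (0.919). For Angptl4 they were Fam13a (0.892), B3galt2 (0.866), Rasl12 (0.832), Grhpr (0.831) and Adora1 (0.822). For Angptl8, with its few counts, they reached only 0.615 (Klf10), 0.584 (Eno1), 0.552 (Nfyc), 0.549 (Dda1) and 0.545 (Rgs7).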

How the data were processed

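iBAT RNA of 35 mice was sequenced with the QuantSeq 3′ FWD kit. The authors aligned reads with STAR 2.6.1d and made the counts per gene with HTSeq 0.11.2 (GRCm38.98 annotation). The deposited counts are whole numbers without normalization. The table has 35 columns, each matched to a mouse by its name, and 0 further sample columns. Symbols and positions came from GENCODE vM21 (GRCm38). Of the 55421 identifiers, 267 had no symbol.

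From the counts, edgeR 4.0.16 in R 4.3.3 compared each duration with the room temperature mice, and 5 days with 6 hours, in a separate fit of 5 against 5 mice (TMM, filterByExpr, quasi-likelihood test, Benjamini-Hochberg over all genes tested). Levels are mean ± SD, n = 5. Exact permutation tests used every split of the mice, and relations used 100000 permutations within durations. Log2 CPM had a prior count of 2. Python 3.11.15 with numpy 2.4.6, pandas 2.3.3 and scipy 1.17.1 was used. The statistics were tested on simulated data. Counting precision is limited by 3846016 to 6047247 counts per library.

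All members are named. Of other listed genes, up to 2 per group are named by rule, those called in the most durations, and further ones where the text says so. One gene that this rule names is not reported here. For 3 members the 5 most similar genes are named. Members, lists and tests were chosen with earlier results of these data known. Alternatives were RLE size factors, library size only, DESeq2 1.42.0, no filter, all 7 groups in one fit, leaving out each mouse in turn and a replicate block. Library size without mitochondrial genes and Gm42418 was added after the data had been seen. Replicate numbers label different mice. Protein sequences were not used here.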

Additional observations from a re-analysis of the deposited data

Results flagged for a closer look

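In 5 of 70 groups of 5 mice, 1 mouse stood apart from the others by more than Dixon's 95% limit, and chance gives about 1 in 20 groups, or 3.5 here. For Lpl after 6 hours, replicate 5 had 8817 CPM, beside 7219 to 7660 in the others. For Slc27a1 after 6 hours, the same mouse had 11.7 CPM, beside 17.4 to 19.4. For Fabp3 after 6 hours, replicate 1 had 807 CPM, beside 1255 to 1414. For Fabp3 at room temperature, replicate 3 had 426 CPM, beside 547 to 596. For Lmf1 after 3 days, replicate 2 had 19.3 CPM, beside 14.3 to 14.9. Without each of these mice the calls after 6 hours for Lpl, Slc27a1 and Fabp3 were kept.

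In 6 members the level after 5 days differed from that after 6 hours by the direct edgeR test of the difference. The log2 differences were -0.64 for Lpl, -0.84 for Gpihbp1, 0.97 for Angptl4, 0.69 for Lmf1, 1.69 for Vldlr and 0.46 for Slc27a1.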

How the results depend on the processing

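The number of members called stayed within 1.5 times its value in each of the 7 comparisons under every alternative, but its split by direction was less stable. With library size alone, Gpihbp1 and Cd36 lost their higher calls at 2 days, while Vldlr and Slc27a1 were called lower. At 3 days under that scaling Gpihbp1 lost its higher call, and Vldlr, Fabp4 and Slc27a1 were called lower. Library size without mitochondrial genes and Gm42418 also added lower calls. These were Vldlr and Slc27a1 at 2 days, Fabp4 at 3 days, and Fabp4 and Slc27a1 at 5 days. Of 490 fits of a member under 7 alternatives, 428 kept direction and side of the threshold, 19 lost a call, 19 gained one and 24 turned direction, and of 700 fits without 1 mouse, 636 kept both. All values that turned belong to differences that were not called. The cause was not tested. With library size alone, Fabp4 was at -0.18, -0.20 and -0.20 (log2) after 6 hours, 1 day and 2 days, Angptl8 at -0.01, -0.09 and -0.16 after 1, 3 and 5 days, Lmf1 at -0.19 after 1 day, Cd36 at -0.05 and -0.08, and Vldlr at -0.04 and -0.05, after 4 and 5 days. Without mitochondrial genes and Gm42418 (38 genes, 46.4 to 56.0% of counts), Fabp4 was at -0.11, -0.11 and -0.09, Lmf1 at -0.11, Angptl8 at -0.02 and -0.11, Cd36 at -0.04 and -0.03, and Vldlr at -0.03 after 4 days. Vldlr after 1 day was at 0.01 with DESeq2 and with no filter, and Gpihbp1 after 5 days at 0.01 with no filter. Without 1 mouse, the ranges that crossed 0 were -0.14 to 0.44 and -0.12 to 0.46 for Angptl8 after 3 and 5 days, -0.13 to 0.12, -0.06 to 0.15 and -0.04 to 0.14 for Fabp4 after 6 hours, 1 day and 2 days, -0.10 to 0.07 for Gpihbp1 after 5 days, and -0.06 to 0.12 for Lmf1 and -0.13 to 0.09 for Vldlr after 1 day.

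Scaling by library size alone moved the median log2 fold change of all genes by -0.134 to -0.233 over the 6 durations, and the share of calls that were higher from between 50.6% and 54.2% to between 25.1% and 35.5%. For all genes after 6 hours, 2280 were higher and 2225 lower with TMM, and 1342 higher and 3399 lower without it. The relation of Lpl with macrophage markers was 0.092 under that scaling and -0.301 without the 2 farthest mice, and that of Lpl with Angptl4 was 0.147 without them. Replicate numbers did not pair the mice (correlations of deviations between -0.188 and 0.144). In a fit with a replicate block, 68 of 70 member results were kept, Gpihbp1 after 3 days lost its call (0.27, edgeR adjusted p = 0.0704) and Fabp4 after 6 hours was at -0.01. Angptl8 had the fewest counts, 7 to 51 per mouse, and varied widely between mice of a group.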
